A study of Mus musculus with 2 samples.

Results

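The expression of 10 genes of triglyceride breakdown and glycerol release was followed in untreated and DF-treated 3T3-L1 adipocytes; DF is a herbal mixture described as acting against obesity. They were taken from a list of gene symbols by role, and all 10 were found among the 24421 symbols of the deposited files. The list holds the triglyceride lipase genes Pnpla2, Pnpla3, Ces1d and Ces1f, the diglyceride lipase gene Lipe, the monoglyceride lipase genes Mgll and Abhd6, the lipase regulators Abhd5 and G0s2, and the glycerol channel gene Aqp7. The rule itself uses no measured value, although the list was drawn up with earlier results of these data known.

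3T3-L1 is a mouse preadipocyte line; the labels give its strain background as C57BL/6 and its passages as 10 to 13. Both cultures were kept for 2 days past confluence, received insulin (1 µg/mL), dexamethasone (0.25 µM, a glucocorticoid) and IBMX (0.5 mM, a phosphodiesterase inhibitor) for 2 days, and then insulin alone. The control culture received nothing further, and the DF culture received DF (DF-GA70 in the sample title) until harvest; neither its dose nor the harvest day is given in the sources used here. Each group holds 1 library, so no value has a replicate error, no test was run, and every difference below compares these 2 libraries only. The sequencing depth of either library is unknown.

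Fat cells store energy as triglyceride in lipid droplets and release it in steps. Adipose triglyceride lipase, the product of Pnpla2, removes the first fatty acid, hormone-sensitive lipase (Lipe) the next, and monoglyceride lipase (Mgll) the last, which leaves glycerol. The first step is driven by the coactivator CGI-58 (Abhd5) and held back by G0S2. Adrenergic signals raise cyclic AMP and activate protein kinase A, which phosphorylates hormone-sensitive lipase and the droplet coat protein perilipin 1. Glycerol leaves the cell through aquaglyceroporins, of which Aqp7 encodes the one typical of fat cells.

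The promoters of the genes that stood furthest apart between the libraries, Mgll, Aqp7 and Pnpla3, are printed to show what sequence lies before each start. Each line gives the 250 bases before a RefSeq start on GRCm38.p6, 5′ to 3′ on the gene's strand. Capitals mark the E-box CACGTG, the nuclear receptor half-site AGGTCA or the CRE half-site TGACGT, searched on both strands.
Mgll, chr6:88724162-88724411, plus strand: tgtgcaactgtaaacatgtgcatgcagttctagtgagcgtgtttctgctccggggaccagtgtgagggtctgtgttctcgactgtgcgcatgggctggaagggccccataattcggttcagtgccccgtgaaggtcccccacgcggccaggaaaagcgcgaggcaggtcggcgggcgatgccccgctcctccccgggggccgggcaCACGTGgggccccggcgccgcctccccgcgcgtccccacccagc
Aqp7, chr4:41048137-41048386, minus strand: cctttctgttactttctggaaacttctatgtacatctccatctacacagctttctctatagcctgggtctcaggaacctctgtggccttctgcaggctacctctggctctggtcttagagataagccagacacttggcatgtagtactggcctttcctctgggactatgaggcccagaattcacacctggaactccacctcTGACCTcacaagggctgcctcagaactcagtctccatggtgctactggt
Pnpla3, chr15:84167566-84167815, plus strand: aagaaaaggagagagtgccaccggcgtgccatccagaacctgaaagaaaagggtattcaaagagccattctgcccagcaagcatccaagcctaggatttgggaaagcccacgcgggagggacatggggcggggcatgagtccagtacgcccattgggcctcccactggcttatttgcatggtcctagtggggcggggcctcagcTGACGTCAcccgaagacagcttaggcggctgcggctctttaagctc

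The Mgll window holds 1 E-box, which starts 44 bases before the start site. An E-box was present in 6.02% of all 32851 promoter windows of this length. The Aqp7 window holds 1 nuclear receptor half-site, read on the other strand, 49 bases before the start. That half-site was present in 14.0% of all windows. The Pnpla3 window holds 2 overlapping matches to the CRE half-site, at 46 and 44 bases before the start, which together form 1 palindrome. The CRE half-site was present in 6.47% of all windows. RefSeq gives further starts for some of these genes. The window of the further Mgll start holds 0 E-boxes. The window of the further Aqp7 start holds 2 nuclear receptor half-sites, at 223 and 101 bases before it, the first of them being the site shown above. The table held windows for 8 of the 10 genes (Ces1d and Ces1f were not among them). Among those 8, Lipe was the only other gene with an E-box, Abhd5 the only other with a nuclear receptor half-site, and Pnpla3 the only one with a CRE half-site. The full direct repeat AGGTCANAGGTCA was in none of their windows and in 0.0335% of all windows. The GC box GGGCGG and the TATA box TATAAA were also searched and are not in capitals. A GC box was in at least 1 window of 7 of the 8 genes and in 32.7% of all windows. The former is a count of genes, which had 12 windows together, and the latter a share of windows, so they are unlike measures. The printed Pnpla3 window holds 2 GC boxes, and those printed for Mgll and Aqp7 hold 0. A TATA box was found for 0 of the 8 genes and in 12.4% of all windows. A match is a string of letters, and no binding was measured.

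Values are on the deposited log2 scale, and differences are DF minus control on that scale. Genes were examined if at least 1 library held them at 8.18 or more, the median of all non-zero values, and counted as higher or lower from a 1.5-fold difference. All 10 genes were examined, 9 of them at that level in both libraries and Aqp7 through the DF library alone. Of these, 3 genes were counted higher with DF (Aqp7, Mgll and Pnpla3), 0 were counted lower, and 7 lay within 1.5-fold. Of all 6761 genes examined, 10.2% were counted higher and 10.9% lower. The median difference of the 10 genes was 0.32 log2 units, against 0.01 for all examined genes above 0 in both libraries. The DF value was above the control value for 9 of the 10 genes and below it for 1 (Abhd5), and it was above for 3455 of the 6760 examined genes above 0 in both libraries. Centred on 10 housekeeping genes, the median was -0.069 and 4 of the 10 genes were above 0. That centring subtracts 0.39, the median over all 10 housekeeping genes. The 9 of them that were examined had a median difference of 0.32, so the sign of the centred median depends on that choice.

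**Figure D1:**
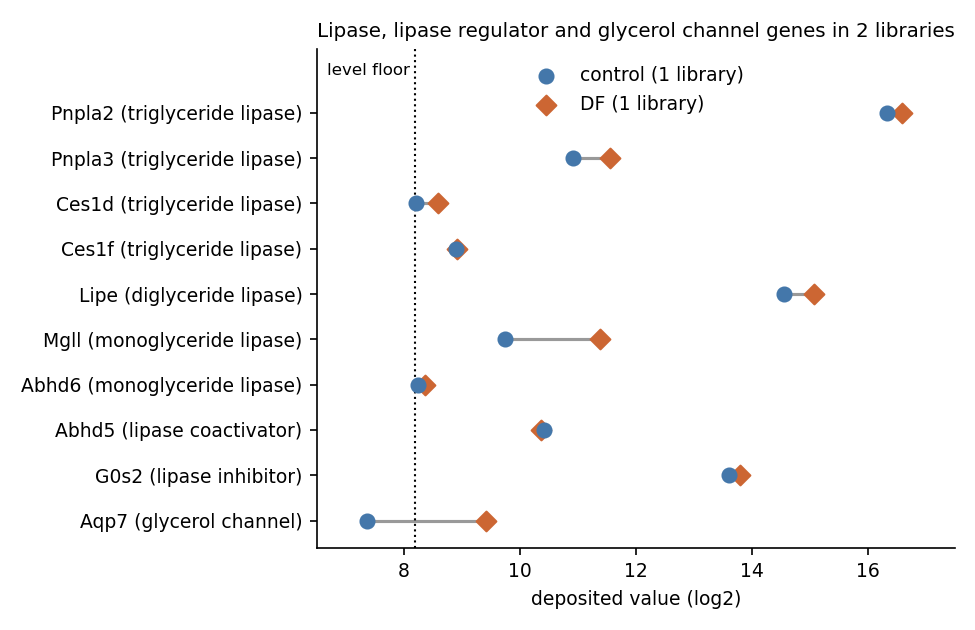
Deposited log2 value of each of the 10 genes in the control library (circles) and the DF library (diamonds), 1 library each; the dotted line is the level floor of 8.18. Aqp7 crosses the floor between the libraries, Mgll moves by 1.65, and Ces1f and Abhd5 nearly coincide.

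The values look quantile-normalized, with the 140 highest values identical in the sorted files. Pnpla2 and Lipe are among those 140 genes in both libraries, so their values give ranks rather than amounts. The same holds for other genes at 13.98 or more in both libraries, such as Cidec and Prkaca. If all values were quantile-normalized, the values, linear values and folds of every other gene also follow from ranks. Reads were taken from transcript ends, and whether values were divided by length is not stated in the labels or headers, so levels of different genes stand side by side only on the deposited scale. In bulk RNA, fewer cells of a type and less RNA per cell cannot be told apart.

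Most mature adipocyte markers lay within 1.5-fold between the libraries, and 3 preadipocyte markers were counted lower with DF; among all examined genes 10.2% were counted higher and 10.9% lower. Of 11 mature adipocyte markers, 2 (Cidec and Cd36) were counted higher, 0 lower and 9 neither, with a median difference of 0.24. Adipoq, Fabp4, Cfd, Cidec, Lpl, Cd36 and Cebpa stood at 13.98 or more in both libraries, so their values give ranks rather than amounts. Of 4 preadipocyte markers examined, 3 (Dlk1, Pdgfra and Ly6a) were counted lower and 0 higher. The summed linear value of the 6 preadipocyte markers listed was 101114 in the control and 38097 with DF. Dlk1, whose value gives a rank as those of Pnpla2 and Lipe do, makes up most of both sums; without it they were 5297 and 3016. The part of either in the differences of the lipase genes was not tested. Markers of macrophages, hepatocytes, endothelium and skeletal muscle were all under the level floor, the highest value among their 24 genes being 6.54. The macrophage markers Adgre1 and Fcgr1, the hepatocyte markers Alb, Ttr, Cyp2e1 and Tat, the endothelial markers Kdr, Tek and Vwf and the muscle marker Myh1 were listed at 0 in both libraries.

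Among the triglyceride lipases, Pnpla3 was counted higher with DF and Pnpla2, Ces1d and Ces1f were not. Pnpla2 stood at 16.32 in the control library and 16.58 with DF, rank 14 and rank 10 of the respective files. The difference was 0.26 log2 units, or 1.20-fold, and because of the shared distribution it amounts to a step of 4 ranks. Pnpla2 therefore lay near the top of both files, with little between them.

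Pnpla3, which encodes adiponutrin, a close relative of the Pnpla2 product, was at 10.91 in the control library and 11.55 with DF. That is 1923 against 2999 on the linear scale and 1.56-fold higher, just past the limit. Of the 1022 other genes within 0.5 log2 units of its mean level, 55 (5.38%) had a difference at least as large, and 6.85% were counted higher. The differences of Pnpla3 and Pnpla2 were 0.38 log2 units apart. Of 426 stretches of 75 bases in the last 500 nt of the Pnpla3 coding transcript, 32 (7.51%) also occur in Gm49513. That transcript lies on the same strand and shares 105 exonic bases with Pnpla3. Its part in the Pnpla3 values was not tested.

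Ces1d and Ces1f encode carboxylesterases that were described as triglyceride hydrolases, mainly in the liver. Ces1d was at 8.21 in the control library and 8.59 with DF, a difference of 0.38. Ces1f was at 8.90 and 8.91, a difference of 0.02. Both lay close to the level floor, where 72.0% of the 1823 genes nearest Ces1d in level stayed within 1.5-fold. Hepatocyte markers were low in both libraries, with a highest value of 5.51 (Apoc3). The Ces1 genes lie side by side on chromosome 8 and resemble each other. Of the distinct 75-base stretches in the last 500 nt of their coding transcripts, 0 of 426 for Ces1d and 0 of 426 for Ces1f occur in a transcript of another gene in GENCODE vM21.

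Lipe, the hormone-sensitive lipase gene, was at 14.55 in the control library and 15.08 with DF. It held rank 86 in the control and rank 53 with DF. The difference of 0.53 log2 units, or 1.44-fold, fell just short of the limit for counting. Of 65 genes within 0.5 log2 units of its mean level, 8 had a difference at least as large. An antisense transcript, 4732471J01Rik, shares 918 exonic bases with Lipe. It stood at 6.60 in the control library and at 4.67 with DF, and the use of strand in counting was not stated in the labels or headers.

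Of the monoglyceride lipase genes, Mgll was counted higher in the DF library and Abhd6 was not. Mgll was at 9.74 in the control library and 11.38 with DF, which is 852 against 2667 on the linear scale. It was 3.13-fold higher (1.65 log2 units) and went from rank 3476 to rank 1300 among all symbols. None of the 1314 other genes within 0.5 log2 units of its mean level had a difference as large; 7.31% of them were counted higher.

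Abhd6 encodes the other monoglyceride lipase of the list, a membrane enzyme that also hydrolyses the endocannabinoid 2-arachidonoylglycerol. It was at 8.24 in the control library and 8.35 with DF, a difference of 0.11. The difference of Mgll exceeded that of Abhd6 by 1.53 log2 units. In the control library the deposited values of the pair were 1.49 log2 units apart and in the DF library 3.03.

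Mgll lies on chromosome 6, from 88724412 to 88828360 on the plus strand (GRCm38), and its E-box window printed above is covered by exons of the antisense transcript Gm26588. Gm26588 shares 167 exonic bases with Mgll. None of the 1434 distinct 75-base stretches in the last 500 nt of the Mgll coding transcripts occur in another gene. For Abhd6, 35 of 950 such stretches (3.68%) also occur in Gm1833.

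The 2 regulators of the first lipolytic step stood at nearly equal values in the libraries. Abhd5, whose product CGI-58 activates adipose triglyceride lipase, was at 10.41 in the control library and 10.37 with DF, a difference of -0.04. G0s2, whose product inhibits the same lipase, was at 13.60 in the control library and at 13.80 with DF, a difference of 0.20. The G0s2 difference was within 0.06 log2 units of that of Pnpla2. The distance between the deposited values of Pnpla2 and G0s2 was 2.72 log2 units in the control and 2.78 with DF.

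Aqp7, the glycerol channel, had the largest difference of the 10 genes. It was at 7.36 in the control library and 9.42 with DF, which is 164 against 683 on the linear scale. It was 4.16-fold higher (2.06 log2 units) and went from rank 7709 to rank 4036 among all symbols. Of the 1823 other genes within 0.5 log2 units of its mean level, 4 had a difference at least as large. That range is noisier than the one around Mgll: 14.2% of those genes were counted higher, and their robust SD was 0.54 against 0.39. Aqp7 lies on chromosome 4, from 41033074 to 41048139 on the minus strand, and overlaps no other annotated gene. Of 426 stretches of 75 bases at its 3′ end, 4 also occur in Mapk12, which was listed at 0 in both libraries.

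**Figure D2:**
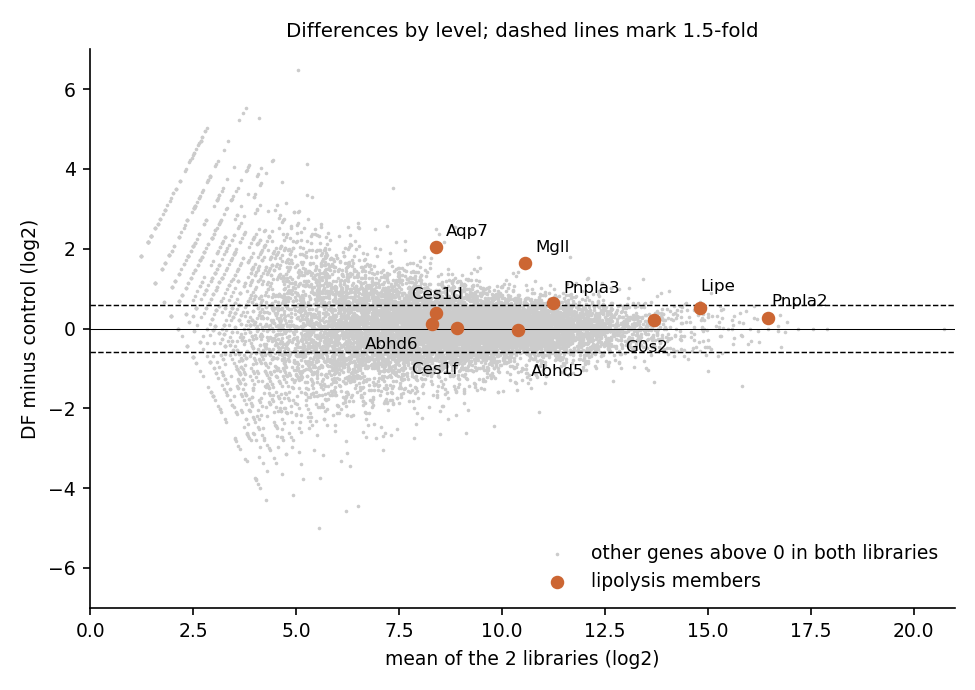
DF minus control (log2) against the mean of both libraries (log2) for every gene above 0 in both; the 10 genes are named and the dashed lines mark 1.5-fold. Aqp7 (2.06) and Mgll (1.65) lie at the upper edge of the cloud at their levels, and Pnpla3 (0.64) lies just above the dashed line.

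The order of the 10 genes on the deposited scale was the same at the top in both libraries (Pnpla2, Lipe, G0s2 and Pnpla3) and changed below. In the control library Abhd5, Mgll, Ces1f, Abhd6, Ces1d and Aqp7 followed. With DF the order was Mgll, Abhd5, Aqp7, Ces1f, Ces1d and Abhd6. Mgll thus passed Abhd5, and Aqp7 moved from place 10 to place 7. With no replicates, it is unknown which neighbours in these orders differ beyond their spread.

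The genes nearest to Mgll in the pair of values, by Euclidean distance over the 2 libraries, were Arxes2 (9.80 and 11.33, distance 0.08), Scd3 (distance 0.28) and Mrpl3 (distance 0.38). Those nearest to Aqp7 were Car3 (7.30 and 9.66, distance 0.25), Nmral1 (distance 0.27) and Tnfrsf12a (distance 0.30). Over 2 libraries this likeness says only that the levels and differences were close.

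The counts depended in part on the scale. Centring on the median of the mature adipocyte markers lowers every difference by 0.24. This is the difference of Adipoq (16.08 and 16.32), whose value gives a rank as those of Pnpla2 and Lipe do. On that scale Aqp7 was at 1.82 and Mgll at 1.41, both still counted higher, and Pnpla3 was at 0.40, no longer counted. The difference was then above 0 for 6 of the 10 genes, with Pnpla2 at 0.02 and G0s2 at -0.04. Of all examined genes, 4.51% were then counted higher and 22.2% lower.

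Centring on 10 housekeeping genes, whose own differences ran from -0.37 to 0.73, lowers every difference by 0.39. Tbp, which had the largest of these differences, was under the level floor (7.26 and 7.99). The 9 housekeeping genes that were examined had a median difference of 0.32, and centring on them was not tried. Aqp7 was then at 1.67 and Mgll at 1.26, and again no other of the 10 genes was counted. The difference was above 0 for 4 of the 10 genes (Aqp7, Mgll, Pnpla3 and Lipe), and Pnpla2 stood at -0.13. On that scale 2.75% of all examined genes were counted higher and 32.4% lower. Each centring subtracts 1 constant from every gene, so the distances between the 10 genes are the same on each scale.

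**Figure D3:**
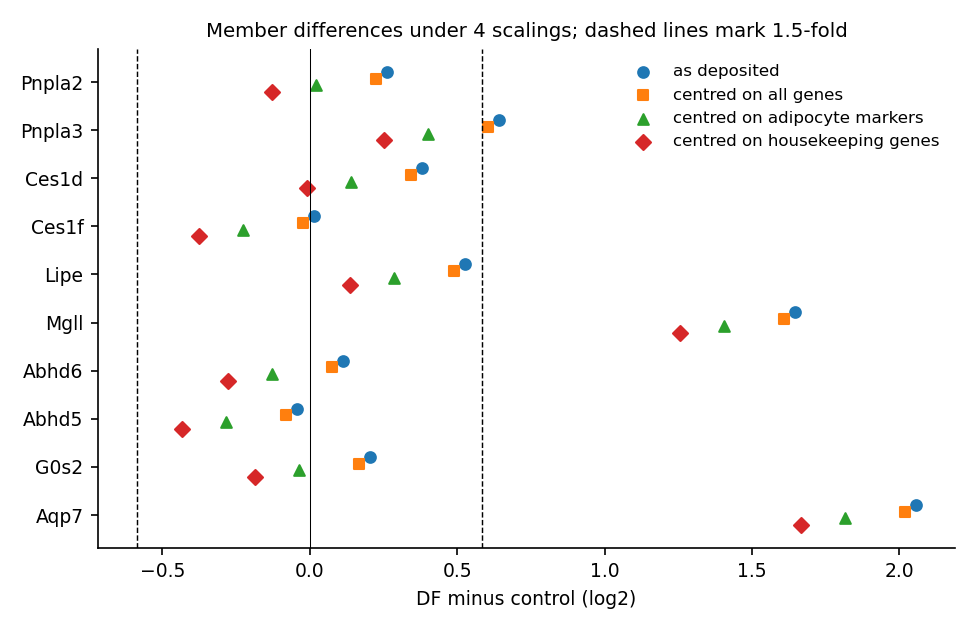
Difference of each of the 10 genes (DF minus control, log2) as deposited and centred on the median of all genes, of mature adipocyte markers or of housekeeping genes; the dashed lines mark 1.5-fold. Aqp7 and Mgll lie past the line on all 4 scales, and Pnpla3 on 2 of them.

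The neighbouring genes of the pathway were read from lists chosen by role, with earlier results of these data known. Of 55 examined genes that are not among the 10, 14 (25.5%) were counted higher and 1 lower, with a median difference of 0.23, against 10.2% higher and 10.9% lower among all examined genes. Centred on mature adipocyte markers the counts were 8 higher and 6 lower, and centred on housekeeping genes 3 higher and 11 lower. The lists share Lpl, Fabp4, Plin1 and Cidec with the mature adipocyte markers. They also hold relatives of the lipases by family, and 6 of the 14 counted higher are ABHD genes, of which 13 were examined.

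Among other acylglycerol lipases and their relatives, 6 of 19 examined genes were counted higher, 1 was counted lower and 12 lay within 1.5-fold, beside 10.2% higher and 10.9% lower among all examined genes. The 6 are ABHD genes, named for the alpha/beta hydrolase fold, as are 13 of the 19 examined; this was seen after the counts were made. Abhd10, which encodes a mitochondrial thioesterase, was at 8.55 in the control library and 9.58 with DF, 2.05-fold higher. Abhd14a was at 7.31 and 8.32, 2.01-fold higher, and passed the floor through the DF library alone. Abhd16a, a phosphatidylserine lipase gene, was 1.73-fold higher and Abhd4, a lysophospholipase gene of N-acylethanolamine synthesis, 1.63-fold higher (10.60 and 11.31). The remaining pair counted higher was Abhd14b, 1.58-fold, and Abhd15, 1.70-fold; these 2 were named after their values were seen.

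The ABHD genes did not all differ. Abhd1, the most abundant of them in the list, was at 11.86 and 11.97, and Abhd5 and Abhd6 differed by -0.04 and 0.11 as given above. The single gene counted lower, Ddhd2, which encodes a triglyceride and phospholipid hydrolase and was named after its value was seen, was at 10.16 in the control library and 9.52 with DF, 1.56-fold lower. Lpl, the lipoprotein lipase gene that acts on circulating triglyceride outside the cell, was at 17.55 in both libraries, an equal rank. Of 15 further carboxylesterase genes listed, 11 were at 0 in both libraries and none reached the floor.

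In lipolytic signalling, 2 of 19 examined genes were counted higher, 0 lower, and 17 lay within 1.5-fold, with a median difference of 0.02. The share counted higher, 10.5%, was near the 10.2% of all examined genes. Adrb3, the beta-adrenergic receptor gene typical of fat cells, was at 11.45 in the control library and 12.73 with DF, 2.42-fold higher. Prkar2b, the regulatory subunit of protein kinase A that predominates in fat cells, was at 11.89 and 12.76, 1.82-fold higher. The catalytic subunit gene Prkaca was at 14.90 and 14.35, a difference of -0.56 that fell just short of the limit. Gnas, which encodes the stimulatory G protein subunit, was at 14.29 and 14.12, and Akt2, a kinase of insulin signalling, at 13.72 and 13.95.

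In glycerol handling, 2 of 6 examined genes were counted higher and 0 lower, with a median difference of 0.58; of all examined genes 10.2% were counted higher and 10.9% lower. Gpd1, the cytosolic glycerol-3-phosphate dehydrogenase gene, was at 13.59 in the control library and 14.53 with DF, 1.91-fold higher. Pgp, which encodes a glycerol-3-phosphate phosphatase, was at 9.91 and 10.65, 1.67-fold higher. Gpd2, the mitochondrial counterpart of Gpd1, was at 12.04 and 12.61, 1.49-fold higher and just short of the limit. The other aquaglyceroporin genes Aqp3 and Aqp9 were listed at 0 in both libraries, and Aqp11 was at 6.12 and 6.54, under the floor. Gyk, the glycerol kinase gene, was at 9.44 in the control library and 9.84 with DF, a difference of 0.41. These aquaporin genes and Gyk were named after their values were seen.

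Among droplet gatekeepers, which coat the lipid droplet or shape it, 4 of 11 examined genes were counted higher and 0 lower, with a median difference of 0.34, beside the same 10.2% and 10.9% of all examined genes. Fitm2, a gene of droplet formation, was at 8.27 in the control library and 9.22 with DF, 1.94-fold higher. Bscl2, which encodes seipin, was at 10.70 and 11.58, 1.84-fold higher. Plin2, a coat protein gene, was at 11.77 and 12.64, 1.82-fold higher, and Cidec, a gene of droplet fusion, at 14.48 and 15.14, 1.59-fold higher. Fabp4, the fatty acid binding protein gene, stood at 16.67 and 16.73, and Ptrf, a caveolar coat gene, at 15.22 and 14.75. Plin1, whose product holds CGI-58 at the droplet until it is phosphorylated, was at 13.97 and 14.32, and Hilpda, whose product also inhibits adipose triglyceride lipase, at 11.93 and 12.15. Plin1 and Hilpda lay within 1.5-fold, as G0s2 did, and were named after their values were seen.

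**Figure D4:**
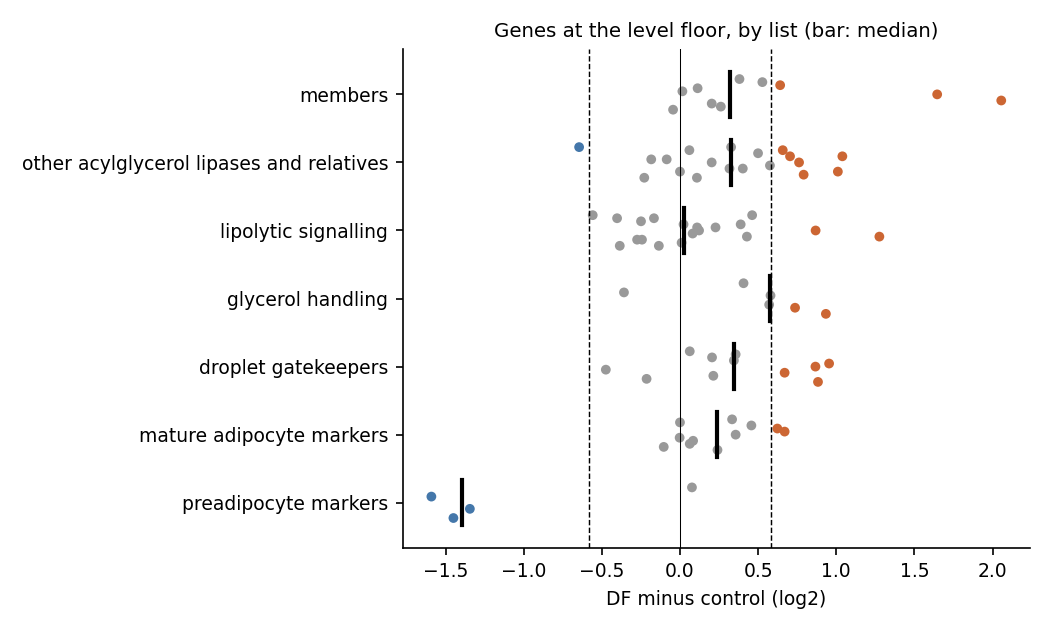
DF minus control (log2) for the examined genes of each list; orange points were counted higher, blue lower and grey neither, black bars are medians of the genes shown and dashed lines mark 1.5-fold. The medians of the 4 pathway lists run from 0.02 for lipolytic signalling to 0.58 for glycerol handling, against 0.32 for the 10 genes, and 3 of the 4 preadipocyte markers lie at the left.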

How the data were processed

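Messenger RNA was sequenced in 1 control and 1 DF library, prepared with a Lexogen 3′ kit (500 ng total RNA each) and read as single 75 nt reads, per the labels' protocols. The authors deposited log2 values with a gene symbol, per the file headers. Bowtie2, edgeR and mm10 are named, per the submitters' processing notes; their versions, the counter, annotation, normalization and use of strand were not found in the labels or headers. From the values, both libraries share their 140 highest sorted values, and 100% of linear values under 1000 lie within 0.001 of a multiple of 1/8, so the normalization may have drawn on libraries not analysed here. It removes differences in total output. No p-value, interval or detection limit was computed; depth is unknown. Genes with a value of 0 are written as listed at 0.

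The 10 genes and all lists were chosen with earlier results of these data known. Each difference subtracts the control from the DF log2 value, without a pseudocount. Named are all 10 genes; per list the 3 most abundant and up to 3 more counted at 1.5-fold with the largest difference; and the 3 genes nearest to Mgll and to Aqp7, passing over predicted genes. Positions and shared 75-base stretches come from GENCODE vM21 (GRCm38), which matched 95.7% of symbols; promoters come from RefSeq (GRCm38.p6). Alternatives were other floors, fold limits, centrings and pseudocounts. Python 3.11.15, numpy 2.4.6 and pandas 2.3.3 were used.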

Additional observations from a re-analysis of the deposited data

How the results depend on the processing

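With 1 library a group, nothing could be left out and no paired analysis was possible because there are no replicates. The count of 3 higher genes stayed within 1.5 times under every floor, centring and pseudocount tried (2 or 3 genes) and was 5 at the lower fold limit tried, where Lipe and Ces1d joined; 0 were lower under each alternative. Aqp7 was not examined at the upper-quartile floor. Their median fell from 0.32 to 0.081 when centred on mature adipocyte markers and to -0.069 on housekeeping genes. Pathway genes counted higher, 14 as deposited, were 8 and 3 under those centrings, 9 at the upper-quartile floor, 26 at the lower fold limit and 3 at 2-fold. Those counted lower, 1 as deposited, were 6 and 11 under those centrings and 2 when centred on all genes. Genes counted lower were 4 of 69 examined at the lower-quartile floor and 4 of 74 with no floor. They were 6 at the lower fold limit, 0 at 2-fold and 0 with the larger pseudocount. Floors, limits, centrings and pseudocounts all change the counts by construction. Which of the scales lies nearest to RNA amounts was not tested. Pnpla3 was also not counted at 2-fold. The larger pseudocount lowered Aqp7 to 1.47 and Mgll to 1.51. In rank among genes above 0 in both libraries, Aqp7 moved by 31.3 percentile points and Mgll by 18.5. Size factors for counts could not be tried, since no counts were used. What depth limits is unknown.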
